A study of Mus musculus with 18 samples.

Results

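The comparison described here set the cortex of the hemisphere opposite to spreading depolarization (SD) against the cortex of sham mice, in the system in which SD was evoked with KCl. All genes of the deposited table for this pair of groups were taken, 13123 of the 13287 genes listed for the KCl system and the 13479 listed for both systems of the study. The study measured poly(A) RNA of mouse cortex in 18 libraries from 12 mice, 9 libraries from a KCl system and 9 from an optogenetic system. All mice were healthy females of the C57BL/6 strain, 7 to 8 weeks old. Stimulated mice underwent 4 SDs within 2 h, spaced 30 min apart. The 3 contralateral libraries came from the right cortex of WT mice whose left cortex received focal KCl. The 3 control libraries came from WT sham mice that received NaCl, and 3 further libraries came from the left, SD-bearing cortex of the KCl mice. The optogenetic mice carried 1 copy of the transgene Thy1-ChR2-YFP, in which the Thy1 promoter drives a channel opened by light in neurons, and were exposed to light of 2 mW for 20 s or were sham. The hemisphere taken from sham mice and the interval between the last SD and tissue collection are not given in the sources used here. Side, KCl on the other hemisphere and SD in the other hemisphere therefore cannot be told apart in this comparison.

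SD is a slowly moving front in which neurons and glia of gray matter lose almost all of their membrane potential, and it is the event behind the migraine aura. In healthy cortex such a wave stays within the hemisphere in which it starts, so the opposite cortex is often used as a control within the same animal. Neurons that fire strongly transcribe immediate early genes such as Npas4, Fos, Arc and Egr1 within minutes, partly through the transcription factor CREB at cAMP response elements, and transcripts of their feedback inhibitors, secreted factors and the prostaglandin enzyme Ptgs2 follow.

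The deposited values are FPKM, fragments scaled by transcript length and by the size of the library. The files give no counts or depths, and the depth is therefore unknown. The listed genes summed to between 223527 and 237268 FPKM in the 6 libraries, and between 11668 and 11832 of them reached 1 FPKM. The 50 most abundant genes held 23.2% of the FPKM in sham 3 and between 25.5% and 26.7% in the other 5 libraries. The 6 libraries did not separate by group. On the first principal component, which held 29.3% of the variance, the contralateral libraries lay at -11.45, 9.57 and 15.15 and the sham libraries at -21.75, 0.38 and 8.10. The correlation of log2(FPKM + 1) across genes was 0.982 to 0.988 within the groups and 0.980 to 0.988 between them, where genes are not independent replicates.

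A single gene passed the test between contralateral and sham cortex. Phc3, which encodes a subunit of the Polycomb repressive complex 1, a chromatin complex that keeps genes silent, fell in the contralateral cortex. Of the genes listed here, 12932 passed the filter of a mean of 0.5 FPKM over the 9 KCl-system libraries, and 191 did not, 29 of which had groups that did not overlap. Differences are of log2(FPKM + 0.5), contralateral minus sham, which understates changes of weakly expressed genes. In limma's fit of the 9 libraries, 0.00771% of the 12972 genes fitted had a Benjamini-Hochberg adjusted p under 0.05, which is Phc3 alone. At an unadjusted p under 0.05 stood 727 genes, or 5.6%, of which 313 were higher and 414 lower in the contralateral cortex (2.41% and 3.19%). The 3 contralateral values lay all above or all below the 3 sham values in 1421 of the 13123 listed genes, or 10.8%. They lay above in 641 (4.88%) and below in 780 (5.94%). With 3 libraries a group, an exact permutation test of a single gene cannot give a two-sided p below 0.1. Groups without overlap have just that p, so a share of 10.8% is near what groups that do not differ would give. The 5.6% at an unadjusted p under 0.05 likewise stands near that threshold. Separate groups alone are therefore no sign of a change in a gene. The limma p-values measure only the spread within the 3 groups of the 9 libraries, the SD cortex included. The titles number the libraries of a group as separate mice. The SD and contralateral libraries are 2 sides of the same mice, which the fit treats as independent.

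**Figure D1:**
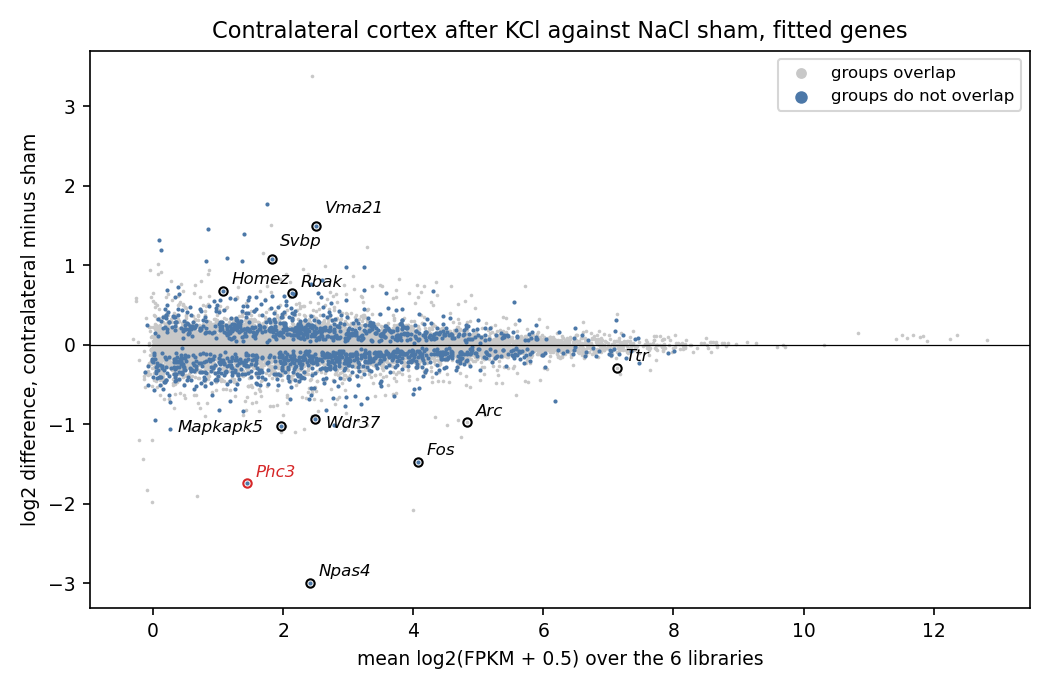
Each point is 1 of the 12932 fitted genes, with the mean log2(FPKM + 0.5) over the 6 libraries on the horizontal axis and the log2 difference, contralateral minus sham, on the vertical axis; colours mark genes whose groups do not overlap. Most genes lie near 0 at every level, and Phc3 stands at -1.74.

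Phc3 (ENSMUSG00000037652.15) lies on the minus strand at chr3:30899371-30969415 of GRCm38. Its level was 1.06, 0.939 and 0.996 FPKM in contralateral libraries 1 to 3 and 3.51, 5.01 and 5.11 FPKM in sham libraries 1 to 3. The 2 groups were far apart, and the contralateral libraries lay within a narrow range. The mean was 0.999 ± 0.0605 FPKM in the contralateral cortex and 4.55 ± 0.897 FPKM in sham (standard deviation, n = 3 each). The log2 difference was -1.74 (limma SE 0.13, 95% interval -2.04 to -1.44, adjusted p = 0.00472). The exact permutation p was 0.1, the smallest that this design allows. Without contralateral 3 the adjusted p was 0.0506. In a fit of the 6 libraries alone it was 0.0847 with the filter on low values and 0.0856 over all listed genes, at unchanged size of the difference. The SD cortex of the same mice stood at 0.975, 0.898 and 0.985 FPKM, at the level of the contralateral cortex. Of the other 19 fitted genes on a list of Polycomb repressive complex 1 subunits and partners, none had an unadjusted p under 0.05, and the list's median difference was 0.05, beside -0.0063 over all fitted genes.

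The optogenetic system gave the same 2 levels of Phc3 in other mice. Its contralateral libraries held 0.969, 0.905 and 1.12 FPKM and its sham libraries 5.62, 6.19 and 4.26 FPKM, with no overlap. The log2 difference there was -1.95 (SE 0.37, limma adjusted p = 0.552), and it differed from the KCl difference by 0.22 (SE 0.42, limma interaction adjusted p = 0.936). Both fits include the optogenetic SD libraries, so these standard errors also hold the spread within the SD cortex. In the optogenetic SD cortex 2 libraries held 1.14 and 1.03 FPKM and the third 4.11 FPKM, so 1 stimulated mouse had the low level on one side and the high level on the other. Phc3 thus stood in 2 separate ranges over the 18 libraries, 0.898 to 1.14 FPKM in 11 libraries and 3.51 to 6.19 FPKM in 7, with none between. By a rule written after these values were seen, 2 levels at least 0.8 apart on the log2 scale, a gap wider than the spread of either level and at least 3 libraries on each, 100 of the 12979 genes with values in all 18 libraries, or 0.77%, were of this kind. The groups of the present comparison did not overlap in 8 of the 100. Phc3 was the only one whose levels separated all 6 contralateral from all 6 sham libraries. GENCODE M21 lists 10 transcripts of Phc3, 6 of them protein coding; the tables give 1 value per gene, and the part of different transcripts in the 2 levels was not tested.

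Vma21, which encodes an assembly factor of the vacuolar proton pump, shows how such levels fell on the libraries in another of the 8 genes. Contralateral libraries 1 to 3 held 4.11, 12.7 and 14 FPKM, and sham libraries 2.94, 2.5 and 3.29 FPKM. Libraries 2 and 3 of the contralateral cortex were on the upper level and library 1 on the lower one, just above sham. The log2 difference was 1.5 (SE 0.36, limma adjusted p = 0.877). Svbp, which encodes the partner of the vasohibin tubulin carboxypeptidases, stood at 4.96, 4.46 and 4.53 FPKM in the contralateral cortex and at 1.41, 4.27 and 1.08 FPKM in sham. Here 1 sham library shared the contralateral level, and the difference was 1.08 (SE 0.34, adjusted p = 0.877).

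**Figure D2:**
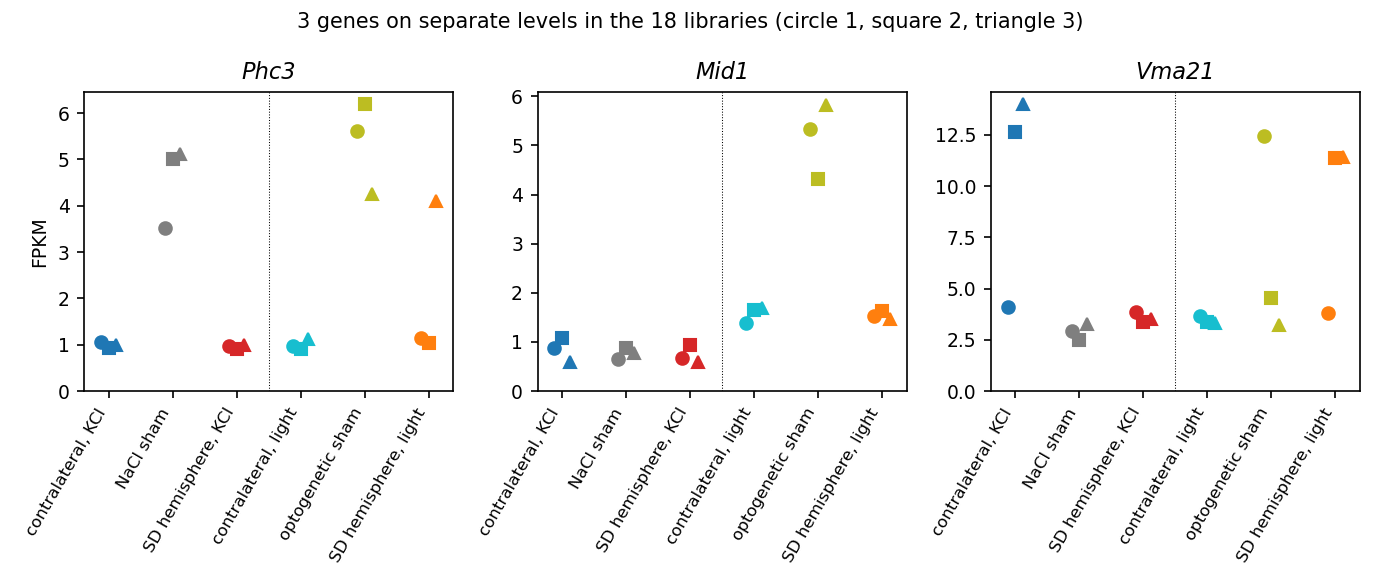
FPKM of Phc3, Mid1 and Vma21 on linear axes from 0 in the 18 libraries, by group. Circle, square and triangle mark libraries 1, 2 and 3. Phc3 is near 1 FPKM in all 6 contralateral libraries and at 3.51 FPKM or more in all 6 sham libraries. Mid1, taken up below, is at 4.32 FPKM or more in the 3 optogenetic sham libraries and at most 1.69 FPKM in the others. The levels of Vma21 divide libraries of the same group.

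After Phc3, the smallest adjusted p was 0.336, shared by Mapkapk5 and Rbak. Homez and the predicted gene Gm20708 followed at 0.537, and 955 genes stood at 0.877. Mapkapk5, a kinase that acts downstream of MAP kinases, held 2.08, 2.08 and 2.63 FPKM in the contralateral cortex and 4.14, 5.99 and 5.25 FPKM in sham, a log2 difference of -1.02 (SE 0.14). Rbak, a zinc finger protein that binds the retinoblastoma protein, held 4.64, 5.32 and 5.04 FPKM against 2.87, 3.38 and 2.79 FPKM, a difference of 0.65 (SE 0.10). Neither pair of groups overlapped. In the optogenetic system, with light in place of KCl, the difference was -0.23 (SE 0.28) for Mapkapk5 and -0.23 (SE 0.17) for Rbak. Homez, a homeodomain protein, held 2.33, 2.03 and 2.16 FPKM against 1.39, 0.936 and 1.20 FPKM, a difference of 0.68 (SE 0.11).

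The other 20 genes named for their small unadjusted p and separate groups had an adjusted p of 0.877 each. Among the lower ones was Wdr37, at 3.58, 3.81 and 3.26 FPKM against 7.65, 7.70 and 6.44 FPKM in sham, a difference of -0.94 (SE 0.20). Its values also differed widely within other groups, at 7.11, 3.82 and 7.17 FPKM in the KCl SD cortex. Without SD 2, the library at 3.82 FPKM, the limma adjusted p of Wdr37 was 0.0444 at the same difference. In the optogenetic system Wdr37 held 3.33, 6.71 and 2.86 FPKM in the contralateral cortex and 6.60, 6.11 and 6.52 FPKM in sham. Tac2, which encodes the neuropeptide neurokinin B, held 2.46, 3.21 and 2.99 FPKM against 5.88, 5.32 and 3.82 FPKM, a difference of -0.69 (SE 0.15). Kcnv1, which encodes a silent potassium channel subunit, differed by -0.54 (SE 0.13), and Ddit4l, an inhibitor of mTOR signalling, by -0.67 (SE 0.16). All 3 contralateral values of these genes lay below the sham values. The receptor tyrosine kinase gene Tyro3 differed by -0.25 (SE 0.05) and Lingo1, a neuronal inhibitor of myelination, by -0.27 (SE 0.06). Among the higher ones Ahi1, a protein of the ciliary transition zone, held 24.1, 23.9 and 25.3 FPKM against 20.5, 17.3 and 19.3 FPKM, a difference of 0.36 (SE 0.07). Sema3e, an axon guidance ligand, differed by 0.32 (SE 0.07) and Cetn3, a centrosomal calcium-binding protein, by 0.28 (SE 0.06). For the higher genes the 3 contralateral values lay above the sham values. Of all fitted genes, 36 differed by more than 1 on the log2 scale in either direction. In 16 of these the groups did not overlap, and 13 of the 16 had a mean of at least 1 FPKM.

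Immediate early genes, the first transcripts of neuronal activity, were examined as a list of 38, of which 37 were listed and fitted and Fosl1 was not listed. None was called in limma's fit. In 28 of the 37 the contralateral mean was the lower one, and the list's median difference was -0.18, beside -0.0063 over all genes. It was -0.28 without contralateral 3 and -0.11 without contralateral 1. At an unadjusted p under 0.05, 11 were lower, where 3.19% of all genes were, and 0 were higher, where 2.41% were. The 11 were Fos, Fosb, Npas4, Arc, Nr4a1, Egr1, Ier2, Csrnp1, Junb, Cyr61 and Egr4. Groups did not overlap in 4 of the 37, all lower (Fos, Npas4, Egr1 and Csrnp1), where 5.94% of all genes were lower without overlap. Proximal promoters of 3 of the 11 are shown because early genes are known for activity-dependent elements there. They are RefSeq sequences of GRCm38.p6, the 250 bases before the annotated start, 5′ to 3′ on the coding strand, at chr19:4989972-4990221 on the minus strand for Npas4, chr12:85473640-85473889 for Fos and chr15:101266596-101266845 for Nr4a1. Capitals mark TGACG, the first 5 letters of the cAMP response element, on either strand, so that a match to the other strand reads CGTCA.
Npas4: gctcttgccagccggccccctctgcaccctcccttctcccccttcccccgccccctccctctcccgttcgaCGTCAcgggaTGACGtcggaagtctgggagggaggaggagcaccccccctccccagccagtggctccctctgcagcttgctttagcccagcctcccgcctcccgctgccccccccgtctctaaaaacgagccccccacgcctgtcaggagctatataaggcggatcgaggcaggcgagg
Fos: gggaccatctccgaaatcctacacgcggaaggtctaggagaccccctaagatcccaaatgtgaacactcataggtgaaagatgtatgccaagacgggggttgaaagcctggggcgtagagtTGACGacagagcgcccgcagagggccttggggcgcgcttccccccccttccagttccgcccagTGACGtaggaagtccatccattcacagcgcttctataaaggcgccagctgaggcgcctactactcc
Nr4a1: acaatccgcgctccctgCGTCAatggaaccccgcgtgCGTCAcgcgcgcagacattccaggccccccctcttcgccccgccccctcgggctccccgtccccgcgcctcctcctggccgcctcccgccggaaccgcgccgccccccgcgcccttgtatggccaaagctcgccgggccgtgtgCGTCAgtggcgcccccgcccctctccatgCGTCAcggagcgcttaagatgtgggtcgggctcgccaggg
These letters occurred 2 times in the Npas4 window, 2 times in that of Fos and 4 times in that of Nr4a1. Of the 37 immediate early genes, 28 had a RefSeq promoter entry, and TGACG was found on either strand in a window of 19 of them, or 67.86%, where it was found for 19.79% of 27025 genes. The full element TGACGTCA, a palindrome that holds TGACG on both strands, was in 2 of the 28, Btg2 and Maff, or 7.14%, and in 1.77% of all genes. A match describes the letters in the window and shows no binding.

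Npas4, an activity-dependent transcription factor of neurons, was low in every contralateral library and varied between sham mice. It held 1.16, 1.4 and 1.63 FPKM in the contralateral cortex and 27.5, 1.81 and 51.4 FPKM in sham. Sham 2 was close to the contralateral libraries, whereas sham 1 and 3 were far above them. The log2 difference was -2.99 (limma SE 0.92, 95% interval -5.07 to -0.91, adjusted p = 0.877). Without sham 2 it was -4.34 (adjusted p = 0.00119), so the call of Npas4 turns on this library. The SD cortex of the KCl mice held 178, 177 and 221 FPKM. In the optogenetic system the contralateral libraries held 1.38, 1.56 and 1.75 FPKM and the sham libraries 1.99, 1.41 and 9.90 FPKM, and the difference between the systems was -2.15 (interaction adjusted p = 0.734).

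Fos, which dimerizes with Jun proteins to form AP-1, also had its lowest sham value in sham 2. It held 7.00, 10.2 and 12.5 FPKM in the contralateral cortex and 48.0, 14.2 and 30.8 FPKM in sham, without overlap. The difference was -1.47 (SE 0.38, limma adjusted p = 0.877). Its partner Fosb held 3.19, 3.58 and 5.04 FPKM against 9.67, 4.86 and 8.13 FPKM, where sham 2 lay below contralateral 3, and differed by -0.83 (SE 0.24). Arc, which encodes a synaptic capsid-like protein that controls AMPA receptor traffic, held 13.7, 20.9 and 26.9 FPKM against 45.5, 26.0 and 51.3 FPKM. Sham 2 again lay within the contralateral range, and the difference was -0.97 (SE 0.30, adjusted p = 0.877). The nuclear receptor gene Nr4a1 held 10.9, 18.3 and 19.1 FPKM against 48.3, 18.6 and 35.8 FPKM, a difference of -1.0 (SE 0.33). The zinc finger factor gene Egr1 held 36.4, 60.2 and 80.2 FPKM against 102, 86.5 and 87.1 FPKM, a difference of -0.71 (SE 0.25). Junb differed by -0.94 (SE 0.36) and Cyr61, a matricellular protein, by -1.0 (SE 0.40). Their groups overlapped at sham 2.

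Other activity-induced genes differed less. Egr2 held 0.886, 1.32 and 3.52 FPKM in the contralateral cortex and 3.45, 0.407 and 1.92 FPKM in sham, a difference of 0.08 (SE 0.54), and its sign changed without contralateral 3 or without sham 2. Dusp1, a MAP kinase phosphatase, held 14.3, 19.5 and 16.0 FPKM against 29.2, 13.5 and 26.4 FPKM, a difference of -0.40 (SE 0.26). Bdnf, the neurotrophin, held 4.80, 4.69 and 5.34 FPKM against 6.75, 5.22 and 4.76 FPKM, a difference of -0.15 (SE 0.17). Klf4 differed by 0.10 (SE 0.21) and the clock and early gene Per1 by -0.06 (SE 0.08). In all these genes the groups overlapped.

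**Figure D3:**
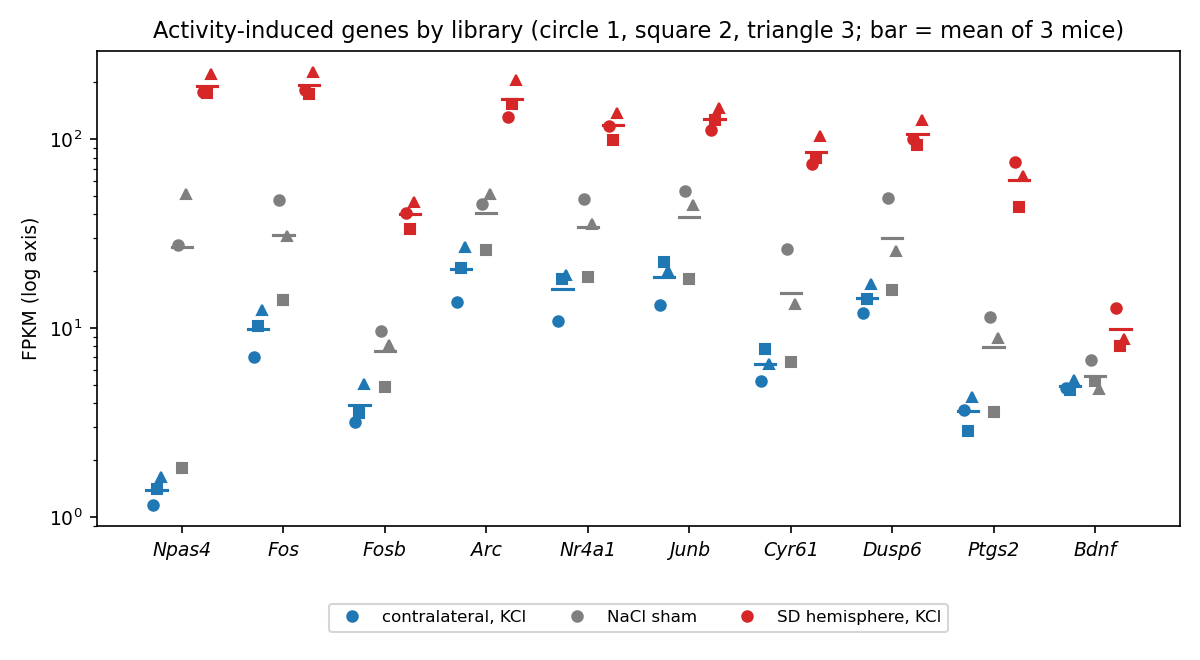
FPKM on a log axis of activity-induced genes in the 9 KCl-system libraries, with circle, square and triangle for libraries 1, 2 and 3 and a bar at the mean of 3 mice. Sham 2 lies nearer the contralateral libraries than sham 1 and 3 do for Npas4 and Fos, and the SD libraries lie above both groups.

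Over the list, sham 1 and sham 3 stood above the contralateral cortex more often than sham 2 did. Sham 1 lay above all 3 contralateral libraries in 21 of the 37 early genes, sham 3 in 17 and sham 2 in 9, where the shares over all genes were 28.6%, 29.8% and 26.4%. The highest of the 6 values was in sham 1 for 18 of the 37, against 19.7% of all genes, and the lowest was in contralateral 1 for 24 of the 37, against 17.1% of all genes. Summed over the list, the contralateral libraries held 384, 490 and 553 FPKM and the sham libraries 758, 549 and 701 FPKM. Contralateral 3 and sham 2 differed little in this sum. In 22 of the 37 genes all 3 SD libraries lay above all contralateral and sham libraries. The SD comparison uses the same sham libraries, so both comparisons move with the level of sham. What the sham mice underwent beyond NaCl is not given in the sources used here, and its part in these values was not tested.

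Feedback inhibitors of MAP kinase and G protein signalling, which early genes and their kinases induce, had 20 fitted members. None was called, 16 differences were negative, and the median was -0.28, or -0.18 without sham 1. At an unadjusted p under 0.05, 5 of the 20 were lower (Spry2, Spry1, Rgs4, Dusp6 and Rgs2) and 0 higher, where 3.19% and 2.41% of all genes were. The groups of 3 did not overlap in the lower direction and those of Rasd1 in the higher one, where 5.94% and 4.88% of all genes were of these kinds. Counts in the lists that follow stand beside the same 4 shares. Spry2, an inhibitor of receptor tyrosine kinase signalling, held 12.7, 12.7 and 13 FPKM in the contralateral cortex and 26.0, 13.8 and 19.3 FPKM in sham. The contralateral libraries were nearly equal, and sham 2 lay just above them. The difference was -0.56 (SE 0.19, limma adjusted p = 0.877). Dusp6, the phosphatase of ERK, held 12, 14.2 and 17.1 FPKM against 49.1, 15.9 and 25.6 FPKM, with sham 2 inside the contralateral range, and differed by -0.90 (SE 0.34). Rgs4, which shortens G protein signals, differed by -0.37 (SE 0.12).

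Activity-induced secreted and synaptic genes gave 21 fitted members, 0 called, 17 negative differences and a median of -0.14. An unadjusted p under 0.05 was reached by 4, all lower, where 3.19% of all genes were lower. The groups of 4 did not overlap, also all lower, where 5.94% of all genes were. Nptx2, a pentraxin that clusters AMPA receptors, held 14.9, 14.4 and 15.8 FPKM in the contralateral cortex and 21.3, 18.9 and 19.2 FPKM in sham, a difference of -0.39 (SE 0.15). Adcyap1, which encodes the vasodilator neuropeptide PACAP, held 6.04, 6.99 and 6.35 FPKM against 9.79, 7.10 and 10.1 FPKM, a difference of -0.43 (SE 0.16). In both the groups were separate, for Adcyap1 by a narrow margin at sham 2.

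Genes of prostaglandin synthesis and breakdown had 9 members, all with a negative difference, a median of -0.21 (-0.10 without contralateral 3) and 0 calls, with 3 lower at an unadjusted p under 0.05. Ptgs2 is also on the list of secreted and synaptic genes and counts among the lower genes of both lists. Ptgs2, the inducible cyclooxygenase, held 3.67, 2.86 and 4.34 FPKM in the contralateral cortex and 11.4, 3.60 and 8.91 FPKM in sham. Sham 2 lay within the contralateral range, and the difference was -0.92 (SE 0.37, limma adjusted p = 0.877). Hpgd, which inactivates prostaglandins, held 2.67, 2.37 and 2.06 FPKM against 3.50, 3.61 and 3.44 FPKM, a difference of -0.49 (SE 0.20). Ptgs1, the constitutive cyclooxygenase, held 2.74, 2.82 and 2.43 FPKM against 3.30, 3.08 and 3.10 FPKM, a difference of -0.21 (SE 0.09). For the latter 2 genes the groups did not overlap, and sham 2 was like the other sham libraries.

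**Figure D4:**
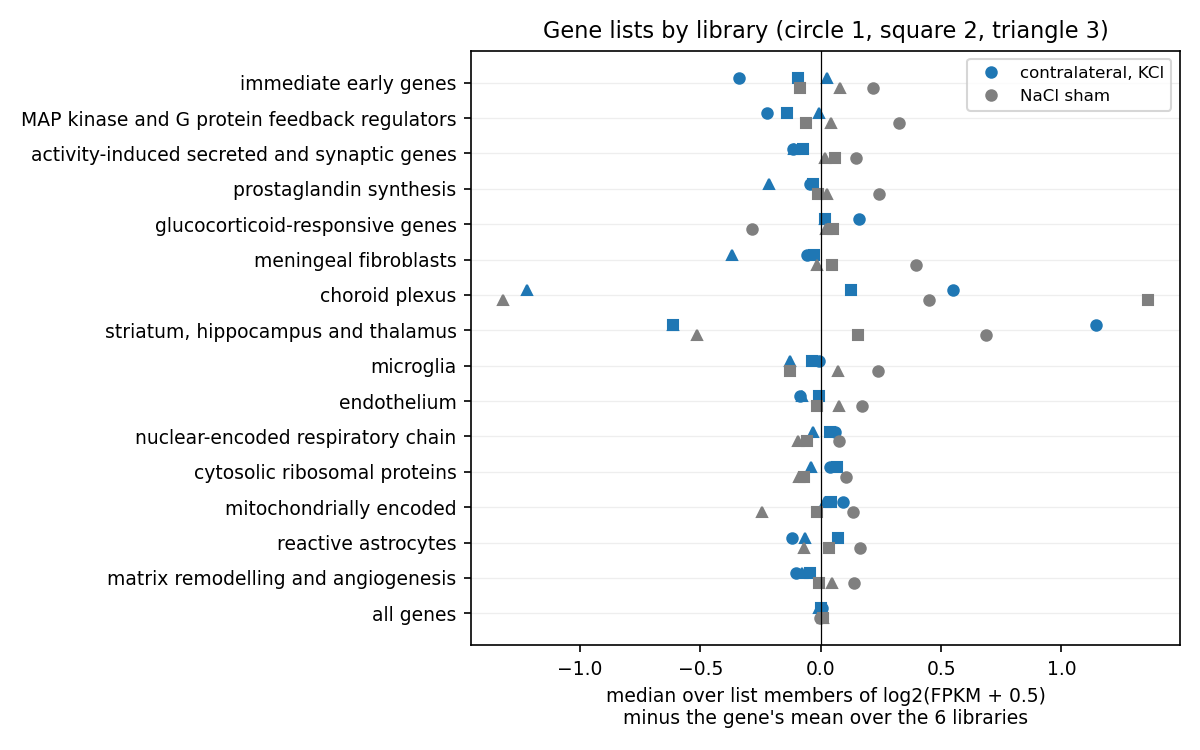
Median over the members of each gene list of log2(FPKM + 0.5) minus the gene's mean over the 6 libraries, with circle, square and triangle for libraries 1, 2 and 3 of each group. For early genes and feedback regulators contralateral 1 is the lowest and sham 1 the highest library, choroid plexus and striatal markers spread the widest, and the sham 1 value of the meningeal list is 0.40.

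Glucocorticoid-responsive genes, which report stress hormone, had 19 fitted members, 3 with a negative difference, a median of 0.21 and 0 calls. At an unadjusted p under 0.05, 3 were higher and 1 lower. Without sham 1 the median was 0.08. Ddit4, an mTOR inhibitor, held 31.1, 31.1 and 29.7 FPKM in the contralateral cortex and 23.1, 25.9 and 29.5 FPKM in sham, a difference of 0.23 (SE 0.08). Zbtb16, a transcription factor, held 15.4, 13.5 and 16.1 FPKM against 8.68, 13.2 and 11.2 FPKM, a difference of 0.44 (SE 0.18). Both had an adjusted p of 0.877, and in both the groups lay close to each other without overlap. Tsc22d1 differed by -0.45 (SE 0.15), with contralateral 2 at 37.1 FPKM among the sham values of 36.7 to 37.9 FPKM and the other contralateral libraries at 24.5 and 22.4 FPKM.

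Core clock genes and their output had 21 members, 10 negative, a median of 0.01 and 0 calls, with 3 higher and 2 lower at an unadjusted p under 0.05. Clock, the partner of Bmal1, held 7.50, 8.09 and 8.50 FPKM against 9.22, 9.82 and 10.2 FPKM, a difference of -0.26 (SE 0.08). The repressor gene Nr1d2 differed by 0.18 (SE 0.07) and Tef by 0.13 (SE 0.05). Their groups did not overlap either, and all 3 had an adjusted p of 0.877. Heat shock chaperones and endoplasmic reticulum stress genes had medians of 0.00 and -0.02, with 0 calls and 0 members at an unadjusted p under 0.05 in either list.

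Of the inflammatory genes that were fitted, 0 were called, and genes that were not listed could not be tested. Of 16 inflammasome and danger signal genes, 8 were listed and fitted. Nlrp3 and Pycard were among those not listed. The 26 interferon-stimulated genes had 18 negative differences, a median of -0.07 and 2 members lower at an unadjusted p under 0.05. Of 24 genes for cytokines and NF-kappaB signalling, 12 were listed and 10 fitted. Tnf, Il6, Ccl2 and Cxcl10 were among those not listed. The 10 fitted genes also had a median of -0.07 and 2 lower members, both weakly expressed. Nfkbie, an inhibitor of NF-kappaB, held 0.402, 0.397 and 0.552 FPKM in the contralateral cortex and 0.961, 1.01 and 0.937 FPKM in sham. The groups were clearly separate, and the difference was -0.63 (SE 0.14, limma adjusted p = 0.877). Tnfaip3, another NF-kappaB inhibitor, differed by -0.35 (SE 0.15). Of 14 genes of activated microglia, 3 were lower at an unadjusted p under 0.05. Among them H2-Aa, an MHC class II chain, held 0.307, 0.687 and 0.354 FPKM against 1.21, 1.09 and 0.840 FPKM, a difference of -0.72 (SE 0.19). Of 22 genes of reactive astrocytes, 14 were listed and 12 fitted, 8 of them with a negative difference. The list's median was -0.16, or -0.27 without contralateral 2 and -0.04 without sham 1. The groups of 3 did not overlap, all lower, and 1 gene was lower at an unadjusted p under 0.05. That gene was Vim, which encodes the filament protein vimentin, at 5.11, 5.03 and 4.80 FPKM against 6.29, 5.74 and 6.65 FPKM, a difference of -0.29 (SE 0.11, limma adjusted p = 0.877). Hspb1, a small heat shock protein, was also separate, with a difference of -0.30 (SE 0.18). Gfap, the astrocyte filament gene of the same list, held 33.6, 31.3 and 26.3 FPKM against 32.7, 28.7 and 27.0 FPKM, a difference of 0.04 (SE 0.18, 95% interval -0.37 to 0.45). Hmgb1, which encodes a nuclear protein released as a danger signal, held 29.1, 30.2 and 28.6 FPKM against 31.1, 29.2 and 28.9 FPKM, a difference of -0.02 (SE 0.05, 95% interval -0.14 to 0.10). For Gfap and Hmgb1 the 2 groups overlapped. Of 16 fitted genes of matrix remodelling and angiogenesis, 10 had a negative difference, the median was -0.11, and 4 were lower and 0 higher at an unadjusted p under 0.05. Ctgf, a matricellular protein, held 8.41, 8.19 and 8.66 FPKM against 12.4, 9.52 and 10.1 FPKM, without overlap, a difference of -0.32 (SE 0.12, adjusted p = 0.877).

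Genes for ion handling and receptors had 0 calls in 3 lists. Of 17 pumps and exchangers, 3 were lower at an unadjusted p under 0.05. The sodium-calcium exchanger genes Slc8a2 and Slc8a1 differed by -0.17 (SE 0.06) and -0.23 (SE 0.10). Of 32 potassium channel genes, 2 were lower, and of 36 glutamate and GABA receptor genes, 1 was higher and 1 lower. The inward rectifier gene Kcnj4 held 27.0, 25.8 and 26.1 FPKM against 35.8, 29.4 and 30.1 FPKM, a difference of -0.27 (SE 0.08). Its groups did not overlap. The genes named here had an adjusted p of 0.877.

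Respiratory chain and ribosomal genes had small positive medians. The difference was positive in all but 19 of 74 nuclear-encoded respiratory chain genes, in all but 17 of 79 cytosolic ribosomal protein genes and in all but 1 of 13 mitochondrially encoded genes. The medians were 0.04, 0.04 and 0.08. In limma's fit 0 members were called, and 3 respiratory chain genes, Uqcrb, Cox5a and Ndufc1, were higher at an unadjusted p under 0.05. Sham 3, in which the most abundant genes held the smallest share of the FPKM, had a median of -0.24 over the mitochondrially encoded genes. Without sham 3 that list's median was -0.01, and the medians of the other 2 lists were 0.01 and 0.01. Without sham 1 the 3 medians were 0.17, 0.10 and 0.10, in the same order. The part of library composition in these medians was not tested.

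Markers of cell types and of other regions served to check the dissection. Lists of neurons, homeostatic astrocytes and oligodendrocytes had medians between -0.09 and 0.06 and 0 calls, and their defining genes were well expressed, Slc17a7 of excitatory neurons at 91.1, 94.0 and 93.3 FPKM against 102, 92.2 and 103 FPKM in sham. The contralateral mean was the lower one for 15 of 18 endothelial, 11 of 14 pericyte and 17 of 17 fitted meningeal fibroblast markers, with medians of -0.13, -0.14 and -0.21. The median over 18 microglia markers was -0.10. Without sham 1 those of the endothelial, meningeal and microglia lists were -0.07, -0.14 and -0.0035. Col1a2, a collagen chain of fibroblasts, held 1.02, 1.06 and 1.15 FPKM against 1.66, 1.95 and 1.5 FPKM, without overlap, a difference of -0.48 (SE 0.13, limma adjusted p = 0.877). Summed over the meningeal list, the contralateral libraries held 268, 291 and 208 FPKM and the sham libraries 352, 275 and 252 FPKM. In bulk tissue, fewer cells of a type and less RNA per cell cannot be told apart. The 5 listed markers of neutrophils and border macrophages summed to 3.24, 4.98 and 3.75 FPKM in the contralateral cortex and to 5.79, 7.29 and 6.91 FPKM in sham, all low and without overlap, and the T cell and B cell markers of that list were not listed. Among the 5, S100a8 of neutrophils differed by -1.05 (SE 0.44). The part of vascular, meningeal and blood-borne cells in the values of early and inflammatory genes was not tested.

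Markers of tissue outside the cortex varied widely between libraries of the same group. The choroid plexus list summed to 567, 437 and 48.0 FPKM in the contralateral libraries and to 508, 1006 and 53.0 FPKM in sham, and contralateral 3 and sham 3 were the low ones. The list's median difference was -0.32, -1.07 without sham 3 and 0.21 without contralateral 3. Its marker Ttr, a thyroid hormone carrier, held 454, 352 and 12.4 FPKM against 424, 817 and 10.3 FPKM, a difference of -0.29 (SE 1.70). Markers of striatum, hippocampus and thalamus summed to 428, 101 and 107 FPKM against 327, 203 and 121 FPKM. Drd1, a dopamine receptor of striatal neurons, held 9.65, 1.69 and 2.04 FPKM in the contralateral libraries and 9.10, 4.90 and 2.59 FPKM in sham. Contralateral 1 and sham 1 were thus the libraries highest in striatal markers. Among the 37 early genes, sham 1 was highest for 18 and contralateral 1 lowest for 24. The part of dissection in the early gene values was not tested. Red blood cell genes summed to 578, 519 and 397 FPKM against 473, 634 and 368 FPKM, and their median difference was 0.03.

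The size of difference that these libraries can show varied with the gene. The median standard error was 0.105 on the log2 scale. For 12400 of the 12932 fitted genes, or 95.9%, the 95% interval of the single gene lay within a 2-fold change in either direction, and for 10942, or 84.6%, within a 1.5-fold change. Among immediate early genes this held for 23 of 37 at 2-fold, or 62.2%. The spread of log2 values between mice was larger in sham than in the contralateral cortex in 25 of the 37, and in 7280 of the 12932 genes in all. The median standard deviation of the early genes was nonetheless similar, 0.30 in the contralateral cortex and 0.29 in sham. Over all fitted genes it was 0.10 and 0.12.

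**Figure D5:**
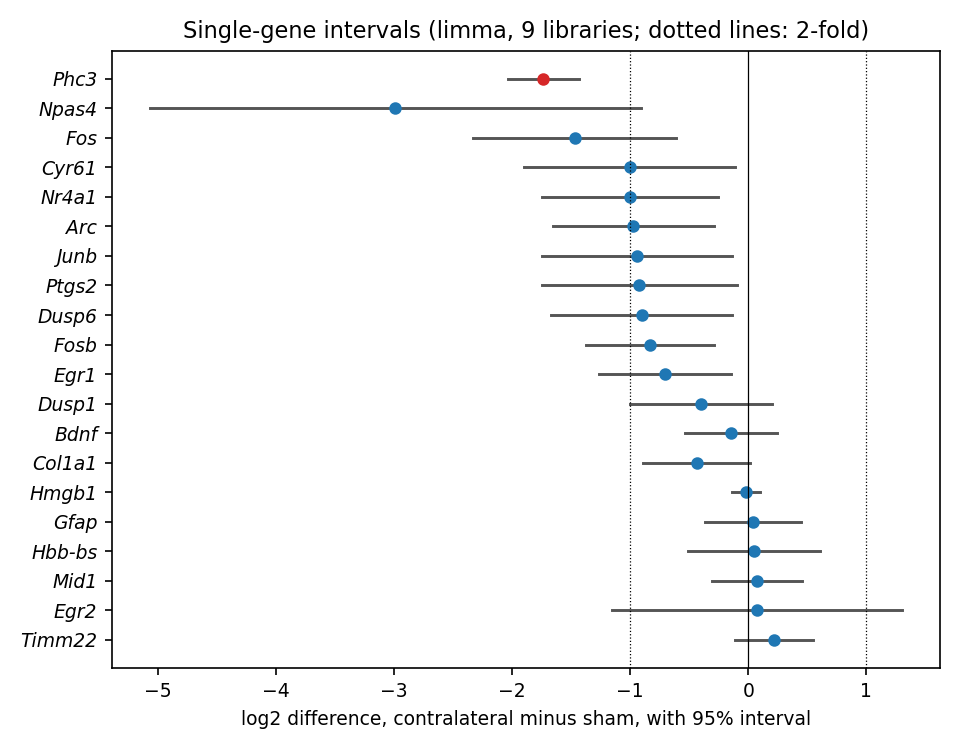
Log2 difference, contralateral minus sham, with its 95% limma interval for single genes; dotted lines mark a 2-fold change. The interval of Phc3 runs from -2.04 to -1.44, those of Gfap and Hmgb1 include 0 and lie within 2-fold, and that of Npas4 runs from -5.07 to -0.91.

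The contralateral cortex of the optogenetic mice allows the same comparison in libraries shared with none of the 6. There too 1 gene was called, 0.00769% of 13001. It was Mid1, a microtubule-associated ubiquitin ligase on the X chromosome. In the KCl system Mid1 held 0.880, 1.09 and 0.586 FPKM in the contralateral cortex and 0.657, 0.881 and 0.767 FPKM in sham, with overlap and a difference of 0.08 (SE 0.17). In the optogenetic system it held 1.38, 1.65 and 1.69 FPKM against 5.34, 4.32 and 5.82 FPKM, a difference of -1.44 (SE 0.11). It was also the only gene, 0.00781% of 12808, for which the KCl and the optogenetic difference differed at an adjusted p under 0.05, by 1.52 (limma interaction adjusted p = 0.0268). This call was lost in 11 of the 17 alternative settings in which Mid1 was fitted, where the adjusted p ran from 0.00575 to 0.189 and the size from 1.31 to 1.75. At an unadjusted p under 0.05 stood 871 genes, or 6.8%.

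Across the 12798 genes in both contralateral comparisons, the differences had the same sign in 5992, or 46.8%, with a Pearson correlation of -0.07 and a Spearman correlation of -0.079 across genes. Genes are not independent replicates, and these values only describe the 12 libraries. Of the 12979 genes with values in all 18 libraries, groups were separate in both systems with the contralateral values higher in 43 and lower in 33. Separation in opposite directions was about as frequent, in 36 and 38 genes. All 6 contralateral libraries lay below all 6 sham libraries for 3 of the 12979 genes, Phc3, Sncaip and Icam1. They lay above them for 7, namely Ahi1, Cnih4, Cyld, Imp4, Mettl18, Mtr and Plppr4. These genes were picked for that order from all 12979, so the order is no test of a shared change. Ahi1 differed by 0.36 (SE 0.07) after KCl and by 0.26 (SE 0.07) after light, where its contralateral libraries held 24.1, 21.4 and 20.9 FPKM and its sham libraries 18.9, 17.8 and 18.6 FPKM. Cyld, which encodes a deubiquitinase that restrains NF-kappaB, differed by 0.25 (SE 0.11) and 0.26 (SE 0.06). Sncaip, which encodes the alpha-synuclein partner synphilin-1, differed by -0.33 (SE 0.12) and -0.14 (SE 0.09). Apart from Phc3 in the KCl system, none of the fitted ones among these genes was called in either comparison. Icam1, an adhesion molecule of endothelium, was below the filter, at 0.298, 0.291 and 0.241 FPKM against 0.562, 0.444 and 0.542 FPKM in sham after NaCl.

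Some of the activity and stress lists were set beside each other in the same way. The median difference of the early genes was -0.18 after KCl and -0.16 after light, and 25 of the 37 had the same sign in both. For the feedback inhibitors the medians were -0.28 and -0.03, with the same sign in 12 of 20, and for the prostaglandin genes -0.21 and -0.02, with the same sign in 5 of 9. Medians of the heat shock chaperones were 0.00 and 0.04, with the same sign in 8 of 20. The secreted and synaptic genes had medians of opposite sign, -0.14 and 0.06, with the same sign in 6 of 21 genes. So did the glucocorticoid-responsive genes, at 0.21 and -0.10, with the same sign in 5 of 19. For Fos the optogenetic contralateral libraries held 7.14, 6.69 and 7.64 FPKM and the sham libraries 9.19, 5.89 and 23.1 FPKM, so that 1 sham library was high there as well. The difference of Fos between the systems was -0.90 (limma interaction adjusted p = 0.779). Arc held 23.4, 18.5 and 22.5 FPKM against 21.5, 19.5 and 19.2 FPKM after light, with overlap. Its difference was -0.97 after KCl and 0.09 after light, and they differed by -1.06 (interaction adjusted p = 0.714).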

How the data were processed

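Poly(A) RNA was sequenced as stranded paired reads, per the labels' protocols. The authors computed FPKM per gene with StringTie on GRCm38, per the submitters' processing notes; no version is given. The deposited table also holds the authors' log2 fold change, their fold change as a ratio, and their p-value and q-value. The authors' group levels, checked against the values, are means of log2(FPKM + 1), and 100.0% of the authors' p-values equal an unpaired equal-variance test on that scale within 1e-06. Hence FPKM were used and counts were not. A single empty line was left out.

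Members, gene lists and tests were chosen with earlier results of these data known. The main model took log2(FPKM + 0.5) of the 9 KCl-system libraries in 3 groups, without covariates, for the 12972 genes whose mean reached 0.5 FPKM. It used limma 3.58.1 (R 4.3.3) with a mean-dependent prior variance, and calls were made at a Benjamini-Hochberg adjusted p under 0.05. The fit treats the 2 sides of a KCl mouse as independent. The optogenetic comparison was fitted in the same way over the 9 optogenetic libraries, SD cortex included. The interaction was fitted over all 18 libraries. Genes were named if called, as the 12 higher and 12 lower genes with the smallest p among separate groups with an established symbol and a mean of at least 1 FPKM, as the 6 largest rises and falls among these, as up to 3 genes of each list by p, or from a fixed list of activity and control genes; other genes were named after their values were seen. The fit was tested on simulated data with independent, normally distributed libraries. The 2 sides of a mouse and genes on 2 levels were not simulated. Coordinates are from GENCODE M21, which holds 13098 of the 13123 gene IDs when versions are ignored. Promoters are from RefSeq. Python 3.11.15 with pandas 2.3.3 handled the tables. Alternatives were other pseudocounts, filters, scalings and priors, a replicate block, the 6 libraries alone with and without the filter, the authors' columns and leaving out each library.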

Additional observations from a re-analysis of the deposited data

Results flagged for a closer look

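Mid1 was singled out because the difference between contralateral and sham cortex was not the same in the 2 systems by the test of that difference itself. The KCl difference exceeded the optogenetic one by 1.52 on the log2 scale (limma interaction adjusted p = 0.0268). The adjusted p was 0.189 with a pseudocount of 0.1 and 0.0602 with a replicate block, and Mid1 was not fitted at a mean of at least 2 FPKM. With 1 library left out it ran from 0.00575 to 0.134, and the call was lost in 9 of 12 such fits. The size ran from 1.31 to 1.75 over all alternatives. The KCl difference was 0.08 (SE 0.17), with overlapping groups, and the optogenetic one -1.44 (SE 0.11). All 3 optogenetic sham libraries lay above the other 15 libraries of the study in Mid1, at 4.32 to 5.82 FPKM.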

How the results depend on the processing

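The number of genes called was 1 with the other pseudocounts, filters on low values, scalings and prior. It was 0 in limma's fit of the 6 libraries compared, both over all listed genes and with the filter on low values, with a replicate block in the fit of 9 or of 6 libraries, and by the authors' deposited q-value, whose smallest value was 0.916. The genes at an unadjusted p under 0.05 then numbered 691, 675, 850, 763 and 655. The filtered fit of 6 libraries and its block were added after seeing the data. Leaving out 1 library gave 0 to 7 calls. Without contralateral 3 none was called, and the limma adjusted p of Phc3 was 0.0506. Without contralateral 1 there were 7, Vma21 among them, without sham 2 there were 6, Npas4 among them, and without sham 3, contralateral 2, SD 2 and sham 1 there were 4, 3, 2 and 1. The 2 without SD 2 were Phc3 and Wdr37. The adjusted p of Phc3 was 0.0856 with the 6 libraries and all listed genes, 0.0847 with the 6 libraries and the filter, 0.0649 with the replicate block and 0.483 with the 6 libraries and the block, and 0.000602 to 0.0216 in its other settings. Genes without overlap numbered 2435 to 3276 when 1 library was left out, since 2 values against 3 separate more easily. The interaction gave 1 call, and 0 with a pseudocount of 0.1, with a mean of at least 2 FPKM or with a replicate block, and 0 to 2 with 1 library left out. Mid1 itself was called in 3 of the 12 fits without 1 library, and where AL731706.1, Macrod2 or Pigk was called, Mid1 was not.

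Contralateral and sham libraries of the same number came from different mice. Deviations of same-numbered libraries from their group means correlated at 0.18, 0.013 and 0.219 across genes. The values for numbers 1 and 3 were the highest between contralateral and sham libraries. Differently numbered libraries gave -0.246 to 0.06, and contralateral 2 correlated best with sham 3 (0.06). The 2 sides of the same KCl mouse gave 0.06, 0.065 and 0.04. What libraries of the same number share was not tested. In the fit of 9 libraries the block moved the number of calls from 1 to 0 and that of genes at an unadjusted p under 0.05 from 727 to 850. In the fit of 6 there were 0 calls with and without it, and 763 and 691 genes at an unadjusted p under 0.05.

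Signs changed in 7 single genes, none called. With 1 library left out, the log2 difference ran from -0.51 to 0.55 for Egr2, from -0.036 to 0.14 for Gfap, from -0.042 to 0.013 for Hmgb1, from -2.21 to 1.37 for Ttr, from -0.14 to 0.24 for Hbb-bs, from -0.047 to 0.23 for Mid1 and from -0.038 to 0.14 for Sgk1. That of Hmgb1 was 0.00313 with quantile normalization. The cause of these shifts was not tested. Over all settings, 1678 of the gene values kept direction and side of the threshold, and 316 of the list medians moved by less than the spread between libraries. Depth is unknown, so no counting error is given.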
